A study of Mus musculus with 12 samples.

Results

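The levels of 6 noncoding RNAs were followed across sorted mouse regulatory T cells (Tregs): Rn45s, the ribosomal RNA precursor; Rpph1, the RNA of the enzyme ribonuclease P; Malat1 and Neat1, long noncoding RNAs of nuclear bodies; and Gas5 and Snhg1, spliced noncoding transcripts whose introns encode small nucleolar RNAs (snoRNAs). They were chosen by gene symbol, as were the gene lists below, with earlier results of these data known. They are 6 of the 24421 rows of the count table, and all 6 passed the filter on low counts. The study removed CD25, a chain of the interleukin-2 receptor encoded by Il2ra, from Tregs and measured their subsets. The mice carried a tdTomato reporter at the R26 locus (labelled R26tomato+/+). Their Foxp3 allele carried eGFP and ERT2, a tamoxifen-responsive part (labelled Foxp3eGFPERT2+/+). All groups, wild type included, received tamoxifen at 2 mg/kg intraperitoneally for 5 days. Tregs were taken 10 days later from spleen and lymph nodes and sorted as live CD4+ cells positive for GFP and tdTomato. Each library pooled 2 to 3 mice.

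The 4 groups held 3 libraries each: wild-type (WT) central Tregs (cTreg, CD62L-high), CD25 knockout (KO) cTreg, WT effector Tregs (eTreg, CD62L-low) and KO eTreg, with the KO cells also gated as CD25-low. The genotype field assigns the floxed Il2ra alleles (CD25FL/FL) to the wild-type libraries, which contradicts the sample titles; the titles were followed. Il2ra was lower in the libraries titled KO: its level was 646.1 ± 36.7 CPM (counts scaled to a common library size; SD, n = 3) in WT cTreg and 132.5 ± 6.54 in KO cTreg, and 597.5 ± 57.0 in WT eTreg and 141.6 ± 9.49 in KO eTreg. Total counts were 14567313 to 19121577 per library, and 11179737 to 18303588 without Rn45s. All CPM below are scaled by library sizes that leave Rn45s out.

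The 8 Treg and T cell markers summed to 3790 to 5740 CPM per library. Markers of other cells were low: 8.74 to 17.6 CPM for 5 B cell genes, 2.91 to 13.2 for 6 myeloid genes, 1.46 to 18.9 for 4 NK cell genes, 6.25 to 14.1 for 2 CD8 T cell genes, 1.52 to 27.3 for 7 erythroid genes and 1.32 to 6.28 for 3 platelet genes. The NK gene Klre1 had no count in any library, the NK gene Ncr1 had none in the cTreg and WT eTreg libraries, and the B cell gene Ms4a1 had none in the 6 cTreg libraries. The B cell sum was lower in KO than in WT in cTreg (8.74 to 11 against 13.1 to 14.7 CPM) and in eTreg (10.5 to 12.8 against 17.0 to 17.6), and the NK sum was higher in KO cTreg (15.2 to 18.9 against 3.73 to 5.55). In cTreg the NK sum came from Klrb1c and Eomes alone. The myeloid sum was higher in KO cTreg (5.94 to 13.2 against 3.33 to 5.33), and the CD8 sum was lower in KO eTreg (6.25 to 6.29 against 7.08 to 7.92) and lower in eTreg than in the cTreg groups (10.5 to 14.1); their part in the results below was not tested. Sums of 5 effector-state genes were also higher in KO cTreg than in WT cTreg (722 to 808 against 251 to 360 CPM), while in eTreg they overlapped (1170 to 1410 in WT and 1290 to 1610 in KO).

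Ribosomes are built in the nucleolus, where RNA polymerase I makes one long precursor that is cut into the mature ribosomal RNAs while snoRNAs guide its chemical modification. Ribonuclease P cuts the leader from precursor transfer RNAs, and it also cuts the primary Malat1 transcript just after a tract rich in A, which frees a small transfer RNA-like RNA and leaves Malat1 with a stable end in nuclear speckles. Neat1 is the scaffold of paraspeckles, and spliced Gas5 and Snhg1 RNAs are by-products of snoRNA release that are cleared when ribosomes translate them, through nonsense-mediated decay. Interleukin-2 receptor signalling and T cell growth are both known to drive ribosome production.

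Sequences place 3 of these features. Malat1 is annotated as one lincRNA at chr19:5795690-5802672 on the minus strand of mm10 (GENCODE vM21), without introns in the transcript used here, which is 6983 bases long. Its ribonuclease P substrate lies near the 3′ end, with the A-rich tract in capitals (bases 6674 to 6691, followed by 292 bases to the annotated end) and the start of the transfer RNA-like RNA after it.

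Malat1, bases 6644 to 6756: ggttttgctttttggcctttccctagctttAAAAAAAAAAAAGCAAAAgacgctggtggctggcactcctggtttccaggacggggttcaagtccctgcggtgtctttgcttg

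Gas5 (chr1:161034422-161038539, plus strand) and Snhg1 (chr19:8723475-8726443, plus strand) were both lower in KO cTreg, so their starts are set side by side, from 50 bases before to 50 after a RefSeq start (GRCm38.p6; the start is base 51). RefSeq lists 2 starts for Gas5, and the downstream one is shown. Capitals mark a run of pyrimidines at the start, defined as a C and at least 4 further C or T bases, beginning within 10 bases of the start on the sense strand.

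Gas5, chr1:161035116-161035215: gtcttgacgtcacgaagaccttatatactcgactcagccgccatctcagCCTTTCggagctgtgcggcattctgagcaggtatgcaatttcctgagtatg
Snhg1, chr19:8723437-8723536: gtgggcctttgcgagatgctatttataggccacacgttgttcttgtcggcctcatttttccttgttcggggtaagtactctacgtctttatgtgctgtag

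The Gas5 run begins 1 base before the annotated start and is 6 bases long. Such a run occurs in 30.7% of the 32851 promoters in the table, and none met this definition at the other Gas5 start or at the starts of Snhg1 and Malat1. The motif CACGTG, read on both strands over 300 bases, occurs in 7.15% of promoters and in none of these. The promoter table held 3 of the 6 RNAs.

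Snord47 (chr1:161038082-161038158, plus strand) is the one snoRNA within Gas5 with a row that passed the filter, and it is shown because its level and that of its host moved differently. Capitals mark box C (from base 11) and box D (from base 70), the paired motifs of its snoRNA class.

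Snord47: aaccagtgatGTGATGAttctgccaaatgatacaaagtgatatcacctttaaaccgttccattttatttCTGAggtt

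Rn45s had the highest mean count of all 24421 rows. It took 24.25%, 22.36% and 24.37% of all counts in the 3 WT cTreg libraries and 18.46%, 18.2% and 18.09% in KO cTreg. In WT eTreg it took 4.344%, 4.278% and 4.111%, and in KO eTreg 3.318%, 3.194% and 3.241%. The order WT cTreg, KO cTreg, WT eTreg, KO eTreg held without overlap between neighbouring groups. Wilson 95% intervals around these shares were at most 0.0219 percentage points to either side, which covers counting error only and is far smaller than the spread within WT cTreg.

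The mean share was 3.748% over the 6 eTreg libraries and 20.96% over the 6 cTreg libraries, and it fell by 17.21 percentage points within genotype (exact permutation test within strata, two-sided, p = 0.005, n = 6 against 6). KO libraries averaged 10.75% and WT libraries 13.95%, a difference of -3.203 points within subset by the same exact test (p = 0.005). This is the smallest p that the 400 arrangements allow. Leaving out any 1 library moved these differences only between -17.53 and -17.03 points and between -3.528 and -3.025 points.

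**Figure D1:**
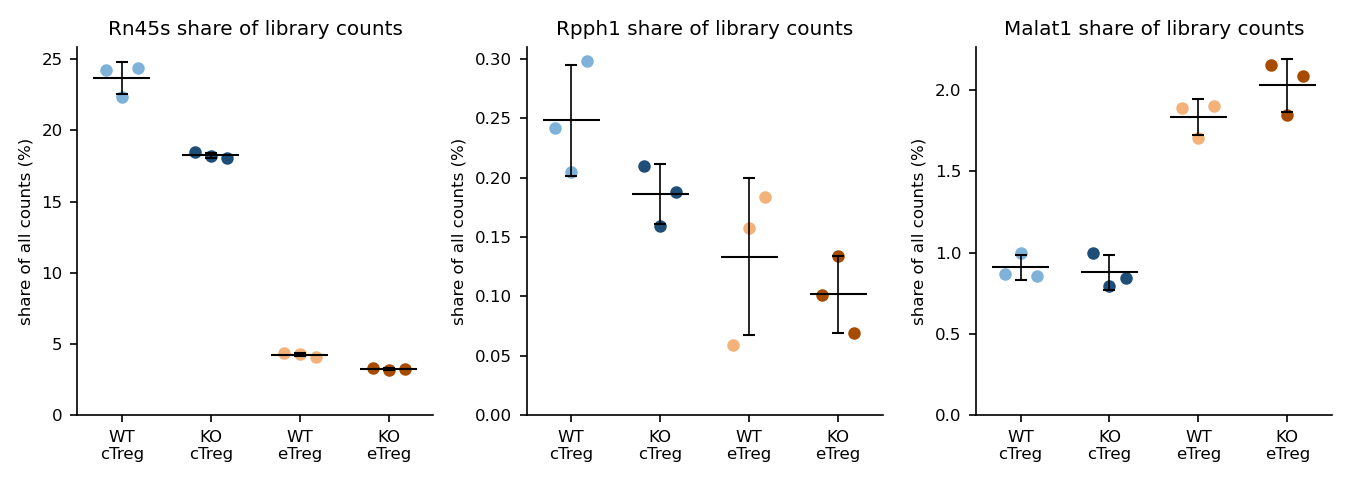
Share of all library counts (%) taken by Rn45s, Rpph1 and Malat1 in each of the 12 libraries, by group; points are libraries, horizontal lines are group means and bars are SD (n = 3). Rn45s falls from 22.36 to 24.37% in WT cTreg to 3.194 to 3.318% in KO eTreg, while Malat1 is at 0.7933 to 0.9993% in the 6 cTreg libraries and 1.707 to 2.158% in the 6 eTreg libraries.

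The Rn45s level, set against all other counts, showed the same order. It was 318900 ± 21280 CPM (SD, n = 3) in WT cTreg, 227900 ± 1557 in KO cTreg, 42820 ± 1158 in WT eTreg and 33150 ± 864.3 in KO eTreg. Because Rn45s is outside the denominator, these values set Rn45s against the other counts only. By the edgeR quasi-likelihood fit, adjusted over 12497 genes after Benjamini and Hochberg, the level was lower in eTreg by a log2 fold change of -2.90 ± 0.062 (SE) in WT (adjusted p = 2.96e-15) and -2.78 ± 0.062 in KO (adjusted p = 1.07e-14), that is 7.45-fold and 6.87-fold. Its p ranked 1 among all genes tested in the KO comparison and 2 in the WT comparison. The KO level was lower by -0.48 ± 0.058 in cTreg (adjusted p = 1.1e-05, 1.40-fold) and by -0.37 ± 0.058 in eTreg (adjusted p = 0.000999, 1.29-fold). The difference between the 2 KO effects was 0.12 (95% interval -0.06 to 0.29), with an adjusted p of 0.512. These 4 calls held under every other setting that keeps Rn45s in the table and with any 1 library left out.

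Of 12 other symbols looked for as ribosomal RNA rows, which include the protein-coding gene Lars2, 2 were in the table and 1 passed the filter. That row is not named here and cannot be read as a second ribosomal RNA. It was not called by edgeR in any comparison, with values of -0.16 for KO against WT in cTreg and -0.11 for eTreg against cTreg in WT. Libraries had been depleted of ribosomal RNA, and the Rn45s row does not separate precursor from mature ribosomal RNA left after depletion. How completely each library was depleted and how much ribosomal RNA the cells held cannot be told apart in these counts, and in bulk samples neither can fewer cells of a type and less RNA per cell.

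Rpph1 (chr14:50807449-50807767, minus strand, 319 bases) was the most variable of the 6. Its level was 3302, 2694 and 4053 CPM in WT cTreg and 2613, 1985 and 2368 in KO cTreg. In WT eTreg it was 593.2, 1583 and 1863, and in KO eTreg 1038, 1360 and 708.1. All 6 eTreg libraries were below all 6 cTreg libraries, but within WT eTreg the highest was 3.14 times the lowest. The pooled within-group SD of log2 CPM was 0.536, at the 99.9th percentile of the 3625 genes whose mean log2 CPM was 6 or more.

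The edgeR log2 fold change of Rpph1 between eTreg and cTreg was -1.31 ± 0.42 (SE) in WT (adjusted p = 0.0194) and -1.17 ± 0.41 in KO (adjusted p = 0.032). These calls did not hold everywhere: with total library size as the scaling, which lets the Rn45s difference into every gene's level and moves the median log2 fold change of all genes to 0.40 in WT and 0.29 in KO, they were -0.89 (adjusted p = 0.0779) and -0.87 (adjusted p = 0.0856), and the KO comparison was lost without any of KO cTreg replicates 1 and 3 or KO eTreg replicates 1 and 3. The WT comparison was lost without WT cTreg replicate 3 (adjusted p = 0.0602). KO against WT gave -0.53 (95% interval -1.47 to 0.41) in cTreg and -0.38 (-1.32 to 0.56) in eTreg, and neither passed (adjusted p = 0.396 and 0.694).

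Some short structured RNAs varied with Rpph1 inside the groups. Rmrp, the RNA of the related enzyme RNase MRP, was at 69.6, 218 and 287 CPM in WT eTreg and 153, 253 and 76.6 in KO eTreg, the same order of libraries as Rpph1. Terc, the telomerase RNA, was at 4.17, 7.5 and 9.92 CPM in WT eTreg and 5.03, 6.43 and 4.24 in KO eTreg. Deviations from group means on the log2 scale, over 12 libraries, had a Pearson r with Rpph1 of 0.969 for Rmrp (Spearman 0.972) and 0.947 for Terc (0.888). Scarna10, a small Cajal body RNA gene named here after its values were seen, gave 0.972. The other 6 short RNAs compared gave 0.131 to 0.698, and protein genes such as Lpar5 (0.948) and Pno1 (0.944), picked from all genes by this value, were as close as Terc. Without the 2 libraries in which Rpph1 lay farthest from its group, WT eTreg replicates 1 and 3, these were 0.947, 0.882 and 0.947. Rpph1 did not vary this way with Malat1 (r = -0.228) or Rn45s (-0.0816). These values describe libraries that share preparation and depth, and they carry no test.

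**Figure D2:**
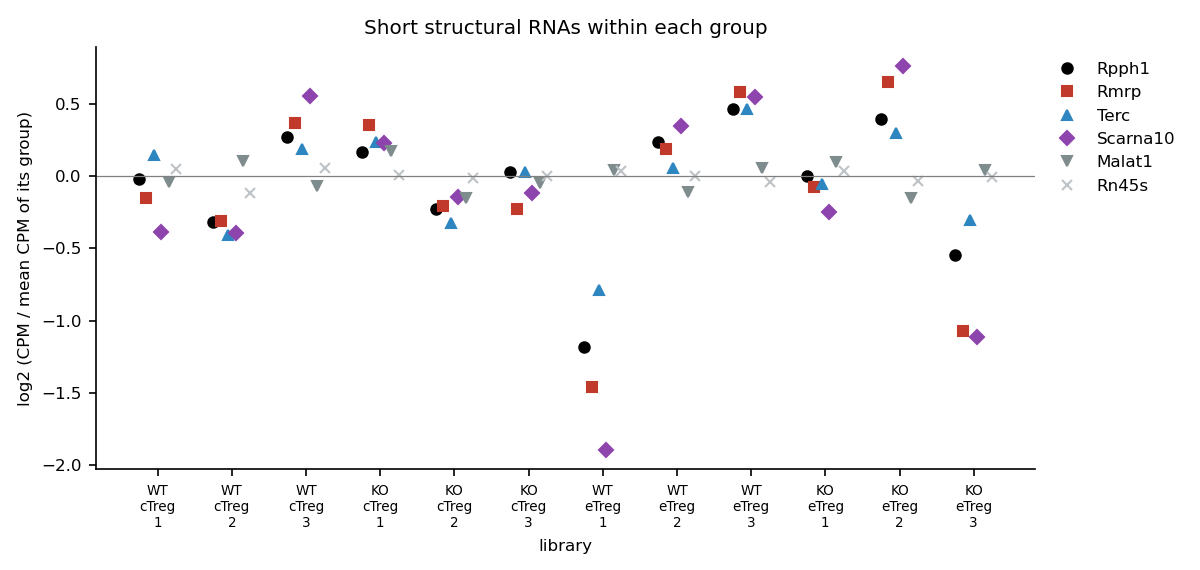
Log2 ratio of each library's CPM to the mean CPM of its group for Rpph1, Rmrp, Terc, Scarna10, Malat1 and Rn45s, in the 12 libraries; each symbol is 1 library and the grey line is the group mean. In WT eTreg replicate 1 and KO eTreg replicate 3, Rpph1, Rmrp, Terc and Scarna10 all lie below their group means while Malat1 and Rn45s stay near theirs.

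Of 22 other structural RNAs in the list, 12 had rows and 6 passed the filter. In WT 4 were lower in eTreg and 0 higher, where 36.6% of all genes were lower and 35% higher, and their median log2 fold change was -1.15 against -0.02 over all genes. Terc had the lowest p, at 25.99 ± 5.58 CPM (SD, n = 3) in WT cTreg and 7.197 ± 2.89 in WT eTreg (log2 fold change -1.84, adjusted p = 0.000116). The others called, Rnu11, Rnu12 and Vaultrc5, were only at 5.62, 3.27 and 0.91 CPM in WT cTreg. Their edgeR adjusted p-values were 0.0361, 0.0392 and 0.033. Rmrp, the most abundant of the 6, was not called (-1.11, edgeR adjusted p = 0.104), nor was Rnu73b (0.21, adjusted p = 0.472). In KO 2 were lower and 1 higher, beside 36.2% and 35.6% of all genes. Without WT cTreg replicate 1 the WT count fell to 1, and with total library size it was 1 lower and 1 higher. The KO count of lower genes ranged from 1, without KO cTreg replicate 1, to 4. By edgeR 0 of the 6 were called for KO against WT in either subset, beside 27.3% of all genes in cTreg and 6.56% in eTreg. Scarna2 and Scarna13, also chosen after their values were seen, fell in eTreg without the spread of Rpph1: Scarna2 was at 289 to 362 CPM in WT cTreg and 67.2 to 85.5 in WT eTreg (log2 fold change -2.11, adjusted p = 9.65e-09), and Scarna13 at 90.8 to 110 and 41.1 to 49.2 (-1.22, adjusted p = 7.6e-08). In KO cTreg their log2 fold changes were -0.40 (adjusted p = 0.0176) and -0.50 (adjusted p = 0.00207), and the Scarna2 call was lost when KO cTreg replicate 2 or either of WT cTreg replicates 1 and 3 was left out (adjusted p up to 0.0695).

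Of 10 genes for proteins of ribonuclease P and RNase MRP, 4 were lower and 2 higher in eTreg in both genotypes, a share called below the 71.6% and 71.8% of all genes. In KO the 2 higher calls could each be ended by leaving out 1 library, and both were lost without KO cTreg replicate 2. Among those lower in WT were Pop5 (log2 fold change -0.94) and Rpp21 (-1.23), and those higher were Rpp30 (0.53) and Pop4 (0.32). In KO cTreg 2 were lower, Rpp38 (-0.88, adjusted p = 0.000837) and Rpp14 (-0.34, adjusted p = 0.0296), beside 13.2% of all genes. The Rpp14 call was lost in 6 of 25 alternatives (adjusted p up to 0.123), total library size and leaving out any of WT cTreg replicates 1 and 3 or KO cTreg replicates 1 and 3 among them. In KO eTreg 0 of 10 were called by edgeR, beside 6.56% of all genes (Rpp14 had -0.36, adjusted p = 0.0541). With total library size 4 were lower and 4 higher in WT eTreg.

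Malat1 had the second highest mean count in the table, after Rn45s. Its level was 11880, 13150 and 11640 CPM in WT cTreg and 12420, 9865 and 10650 in KO cTreg. It was 19110, 17120 and 19300 CPM in WT eTreg and 22150, 18710 and 21320 in KO eTreg. Every eTreg library was above every cTreg library, whereas KO and WT overlapped in both subsets. Its share of all counts, which Rn45s also enters, was 2.02 times higher in eTreg in WT (0.9087% ± 0.07879 to 1.834% ± 0.1106, SD, n = 3) and 2.31 times higher in KO (0.8795% ± 0.1068 to 2.032% ± 0.1631).

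After scaling without Rn45s, Malat1 was 1.51-fold higher in eTreg than in cTreg in WT (log2 0.60 ± 0.086 SE, edgeR adjusted p = 1.27e-05) and 1.89-fold higher in KO (0.92 ± 0.086, adjusted p = 1.18e-07). Both calls held in all alternatives. KO against WT was -0.16 in cTreg (95% interval -0.34 to 0.03, adjusted p = 0.202) and 0.16 in eTreg (-0.02 to 0.35, adjusted p = 0.327). In a fit of the 6 eTreg libraries that blocks on replicate, the eTreg value was 0.15 and its adjusted p = 0.0126. Without KO cTreg replicate 1 the cTreg value was -0.24 (adjusted p = 0.031). The difference between the KO effects, 0.32, had an adjusted p of 0.183, and 0.41 with an adjusted p of 0.036 without KO cTreg replicate 1.

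Other long noncoding RNAs of the nucleus were mostly higher in eTreg too. Of 13 tested, 10 were higher and 1 lower in WT and 12 higher and 0 lower in KO, beside 35% and 35.6% of all genes higher, with median log2 fold changes of 0.90 and 0.88 against -0.02 and -0.01 over all genes. Xist, Tsix, Ftx and Jpx, RNAs of the X-inactivation locus, were among those higher in both genotypes, so the tally does not count only separate loci. Tug1 rose from 178.1 ± 10.2 CPM (SD, n = 3) in WT cTreg to 333 ± 4.46 in WT eTreg (log2 0.90, adjusted p = 5.63e-10). Xist, which coats the inactive X chromosome, rose from 1681 ± 175 CPM in KO cTreg to 4378 ± 335 in KO eTreg (log2 1.38, adjusted p = 1.89e-09). Miat was at 0.0586 CPM in WT cTreg, from at most a few counts, and at 7.26 in WT eTreg (adjusted p = 7.03e-10). Airn, the noncoding RNA of the Igf2r locus, was the one lower in WT eTreg (log2 -0.74, adjusted p = 0.0105), a call lost with total library size (adjusted p = 0.216). In KO cTreg 3 of the 13 were higher and 2 lower, beside 14.1% and 13.2% of all genes. Dleu2 was at 6.63 CPM in WT cTreg and 14.5 in KO cTreg (log2 1.11), and Airn at 16.5 and 6.32 (-1.40). Miat was also higher in KO cTreg (log2 3.37, edgeR adjusted p = 0.00122), though only at 0.689 CPM. In KO eTreg Dleu2 was higher (0.57, adjusted p = 0.0376) and Miat lower (-0.75, adjusted p = 0.0416), beside 3.13% and 3.43% of all genes. Leaving out any of the 3 WT eTreg libraries ended the Dleu2 call in eTreg. Leaving out any of the 3 KO eTreg libraries ended that of Miat in eTreg. The KO effects on Miat thus ran in opposite directions. Of the 13, it alone was called for the difference between them (-4.12, edgeR adjusted p = 0.00211), beside 2.88% of all genes lower. Nuclear speckle and splicing factor genes, the protein partners of Malat1's compartment, were called about as often as all genes: 9 of 20 were higher and 7 lower in WT eTreg, beside 35% and 36.6% of all genes, with Srsf10 at 0.61 and U2af2 at -0.66. With total library size these were 14 and 3.

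Neat1 (chr19:5824708-5845478, minus strand) lies beside Malat1 on the same strand but did not follow it. Its level was 362.2, 345.1 and 376.1 CPM in WT cTreg and 406.6, 333.8 and 379.1 in KO cTreg. In WT eTreg it was 293.5, 299.9 and 302.0, and in KO eTreg 351.6, 340.6 and 380.2. WT eTreg was thus the one group set apart, below all 9 other libraries, and the other 3 groups overlapped. Its edgeR log2 fold change was -0.27 ± 0.064 (SE) for eTreg against cTreg in WT (adjusted p = 0.00109) and 0.26 ± 0.064 for KO against WT in eTreg (adjusted p = 0.021). In KO, eTreg against cTreg was -0.06 (adjusted p = 0.399), and in cTreg KO against WT was 0.05 (adjusted p = 0.635). The difference between the KO effects was 0.21 with an adjusted p of 0.235.

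These 2 calls share the WT eTreg libraries. The KO call in eTreg was lost without WT eTreg replicate 1 (adjusted p = 0.0708), 2 (0.0639) or 3 (0.0607) or without KO eTreg replicate 3 (0.117), with log2 fold changes of 0.21 to 0.27; with the replicate block in these 6 libraries its adjusted p was 0.000486. The subset difference in WT turned to 0.14 with total library size as the scaling, below the shifted median of all genes. None of 16 paraspeckle protein genes was called by edgeR for KO against WT in either subset, where 27.3% of all genes in cTreg and 6.56% in eTreg were; the DESeq2 Wald test called 2 in cTreg and 0 in eTreg. Between subsets in WT 5 were higher, beside 35% of all genes, among them Taf15 (0.33), and 5 lower, beside 36.6%, among them Dazap1 (-0.92); with total library size these were 12 and 2.

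**Figure D3:**
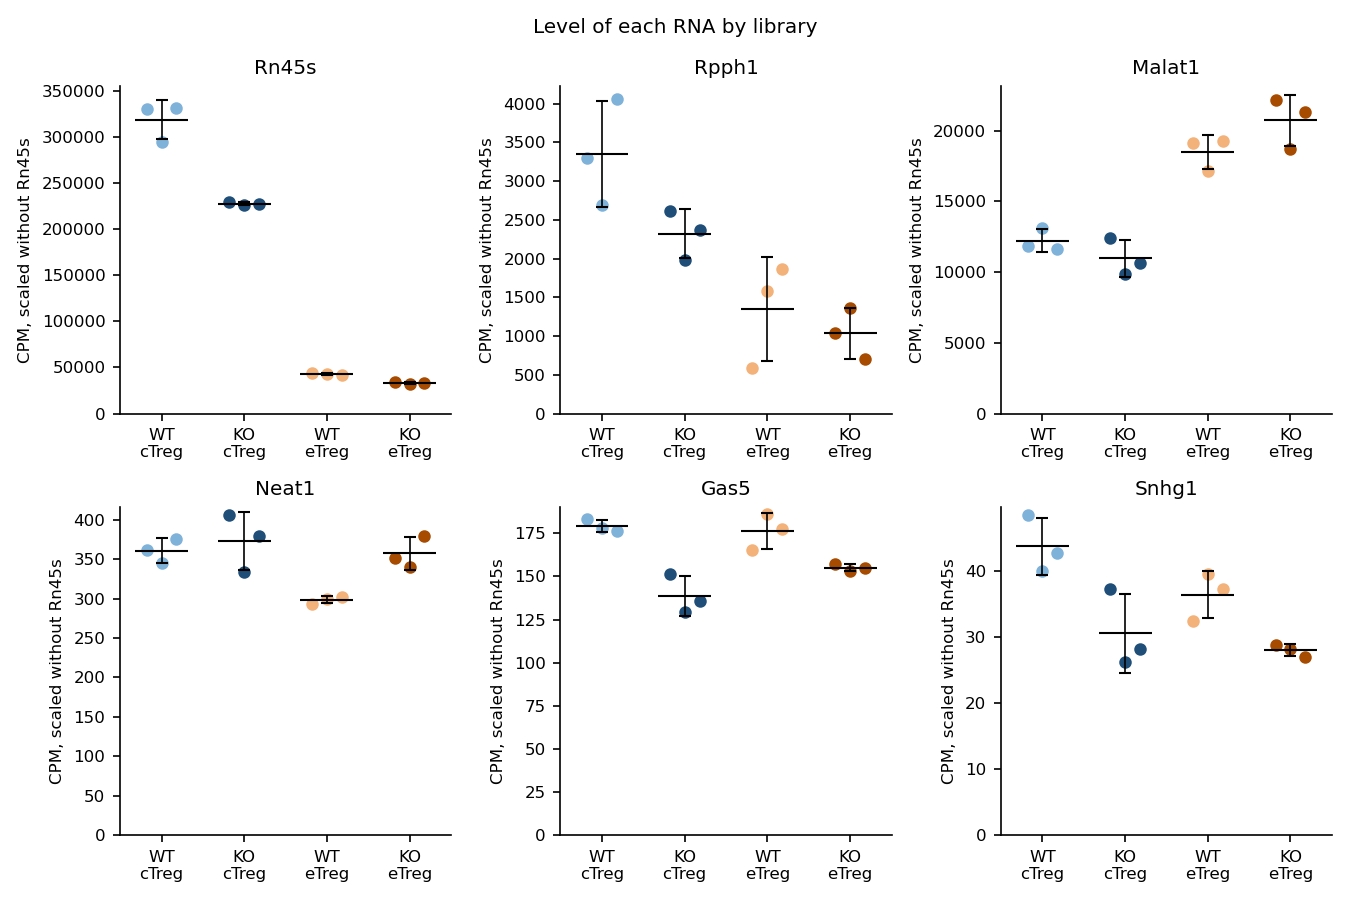
Level of each of the 6 RNAs in CPM scaled by library sizes without Rn45s, in each library by group; lines are group means and bars SD (n = 3), and each panel has its own axis from 0. Malat1 and Rpph1 separate the subsets in opposite directions, and Neat1 is lowest in the 3 WT eTreg libraries (293.5 to 302.0 CPM). For Gas5 and Snhg1 the KO libraries lie below the WT libraries of their subset, a difference called by edgeR in cTreg and not in eTreg.

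Gas5 was at 183.2, 178.2 and 176.4 CPM in WT cTreg and 151.6, 129.3 and 135.6 in KO cTreg. It was at 165.6, 186.5 and 177.5 in WT eTreg and 157.2, 152.9 and 155.0 in KO eTreg. Every KO library was below every WT library of its subset. In cTreg the difference was -0.37 ± 0.059 on the log2 scale (SE, edgeR adjusted p = 0.000185), and in eTreg it was -0.19 ± 0.058 (adjusted p = 0.0648). The eTreg value passed with the replicate block in the 6 eTreg libraries (-0.19, adjusted p = 0.0103) and in 4 other alternatives.

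Snhg1 gave the same picture at a lower level. It was at 48.35, 39.87 and 42.72 CPM in WT cTreg and 37.27, 26.12 and 28.16 in KO cTreg, from counts of 372 to 523 in these 6 libraries. In WT eTreg it was at 32.42, 39.45 and 37.16, and in KO eTreg at 28.72, 28.12 and 26.96. The groups did not overlap in either subset. KO against WT was -0.52 ± 0.12 (SE) in cTreg (edgeR adjusted p = 0.00354) and -0.38 ± 0.11 in eTreg (adjusted p = 0.0598), and -0.39 with an adjusted p of 0.0027 in eTreg with the replicate block. In eTreg 9 alternatives in all brought Snhg1 past the threshold, the DESeq2 Wald test (adjusted p = 0.0432) and limma-voom (adjusted p = 0.043) among them.

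Of the 6 RNAs, 3 (Rn45s, Gas5 and Snhg1) were lower in KO cTreg and 0 higher, where 13.2% of all genes were lower and 14.1% higher; in KO eTreg 1 (Rn45s) was lower and 1 (Neat1) higher, beside 3.43% and 3.13% of all genes. The difference between the KO effects in the subsets was not called for any of the 6 by edgeR, beside 3.73% of all genes (0.848% higher and 2.88% lower); Malat1, Neat1 and Gas5 had unadjusted p-values of 0.0189, 0.0318 and 0.0435. Between subsets 4 of the 6 were called in WT and 4 in KO, against 71.6% and 71.8% of all genes.

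**Figure D4:**
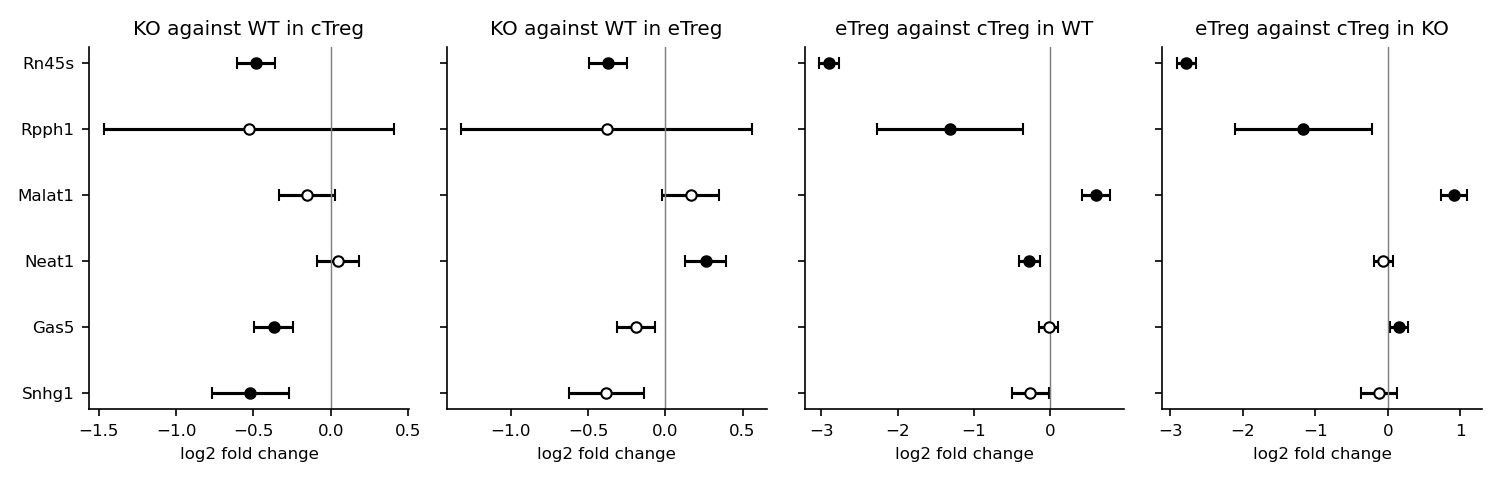
Log2 fold change of each RNA in 4 comparisons (edgeR, scaled without Rn45s); bars are 95% intervals, filled circles have an adjusted p under 0.05 and open circles do not. Rn45s is lower in all 4, Malat1 is called between subsets and not by genotype, and Gas5 and Snhg1 lie below 0 in both KO comparisons.

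Gas5 and Snhg1 also moved together inside groups: the deviations of their log2 CPM from group means had an r of 0.932 over 12 libraries (Spearman 0.916), and 0.836 without KO cTreg replicates 1 and 2. Gnl3, the nucleolar protein nucleostemin, deviated with both (r = 0.92 with Gas5 and 0.936 with Snhg1). It was at 51.07 ± 2.51 CPM in WT cTreg, 33.14 ± 2.65 in KO cTreg, 60.02 ± 4.48 in WT eTreg and 47.74 ± 0.534 in KO eTreg (SD, n = 3). Ddx50, a nucleolar RNA helicase, gave 0.935 and 0.973 and did not differ by genotype in either test (adjusted p = 0.0866 and 0.957). Gnl3 and Ddx50 were picked from all genes by this likeness.

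Between subsets Gas5 and Snhg1 changed little beside Rn45s and Malat1. Gas5 differed by -0.02 in WT (adjusted p = 0.754) and 0.16 in KO (adjusted p = 0.0223, lost without KO cTreg replicate 2 or 3 or KO eTreg replicate 1, with adjusted p of 0.128, 0.077 and 0.056). Snhg1 differed by -0.26 in WT (adjusted p = 0.0509) and -0.12 in KO (adjusted p = 0.361). With total library size Gas5 was 0.40 higher in WT eTreg, at the shifted median of all genes. Snord47 did not follow Gas5: its counts were 24, 19 and 14 in WT cTreg and 20, 15 and 20 in KO cTreg, and 47, 59 and 56 in WT eTreg and 49, 58 and 59 in KO eTreg. It was higher in eTreg by 0.98 ± 0.25 (SE) on the log2 scale in WT (adjusted p = 0.00201) and 1.30 ± 0.25 in KO (adjusted p = 0.00018). A total RNA library of this kind captures few molecules of this length, and Snord47 reads could also come from unspliced Gas5. Snord22, in Snhg1, was at 5.383 ± 0.477 CPM in WT cTreg and 3.965 ± 0.657 in WT eTreg (adjusted p = 0.0457, lost in 18 of 25 alternatives). Of 18 snoRNAs of the 2 hosts looked for, only these 2 had rows.

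Of 16 snoRNA host genes tested, Gas5 and Snhg1 included, 9 were lower in KO cTreg, 0 higher and 7 not called, beside 13.2% of all genes lower, with a median log2 fold change of -0.40 against -0.01 over all genes. Snhg17 was at 43.75 ± 2.42 CPM in WT cTreg and 26.58 ± 1.43 in KO cTreg (-0.72, adjusted p = 1.73e-06). In KO eTreg it was the only host called (-0.45, adjusted p = 0.00106), beside 3.43% of all genes lower. With the replicate block in the 6 eTreg libraries 5 hosts were lower. In eTreg against cTreg in WT 8 hosts were lower, with Snhg17 (-0.64) and Snhg12 (-0.99) at the lowest p, and 1, Taf1d, was higher (0.53), beside 36.6% and 35% of all genes; with total library size 4 were lower and 2 higher.

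Genes that make and process ribosomal RNA were measured beside Rn45s. Of 35 processing factors, 27 were lower and 0 higher in KO cTreg, beside 13.2% and 14.1% of all genes, with a median of -0.32 against -0.01. Nolc1, a nucleolar phosphoprotein, fell from 90.8 to 66.1 CPM (-0.46, adjusted p = 1.52e-05) and Gnl3 by 0.63 on the log2 scale (adjusted p = 1.05e-05). In KO eTreg 7 were lower and 0 higher, beside 3.43% and 3.13% of all genes, among them Gnl3 (-0.33, adjusted p = 0.00826) and Fbl, the methylase that snoRNAs guide (-0.37, adjusted p = 0.012, lost when KO eTreg replicate 3 or either of WT eTreg replicates 2 and 3 was left out and in both fits of the 6 eTreg libraries). That count was 14 with the replicate block in the 6 eTreg libraries, and as low as 0 when 1 library, WT eTreg replicate 2, was left out. Between subsets in WT 19 were lower, with Bop1 at -1.02 and Rrp9 at -1.35, and 6 higher, with Ncl at 0.41, beside 36.6% and 35% of all genes; with total library size this turned to 5 lower and 19 higher.

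Of 15 genes of RNA polymerase I and its factors, 6 were lower in KO cTreg, led by Polr1b, its second-largest subunit (-0.67, adjusted p = 1.27e-05), and 1, Polr1d, was higher (0.28, adjusted p = 0.0128, lost without WT cTreg replicate 2 or KO cTreg replicate 3), beside 13.2% and 14.1% of all genes. With total library size 3 were lower, as without KO cTreg replicate 2. In KO eTreg 2 were lower, Polr1b (-0.34, adjusted p = 0.0178) and Cd3eap (-0.44, adjusted p = 0.0341), beside 3.43% of all genes. Both calls were lost in some alternatives that left out an eTreg library. Between subsets in WT 8 were lower, with Taf1c at -1.21, and 4 higher, with Taf1b at 0.54, beside 36.6% and 35% of all genes; with total library size 1 was lower and 9 higher.

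Of 80 ribosomal protein genes, 75 were lower in KO cTreg (median -0.37) and 54 in KO eTreg (median -0.23), with 0 higher in either, beside 13.2% and 3.43% of all genes lower; the eTreg count ranged from 21 to 66 with 1 library left out, and was lowest without KO eTreg replicate 3. In eTreg against cTreg 76 were lower and 1 higher in WT (median -0.85), beside 36.6% and 35% of all genes. In KO 75 were lower and 1 higher (median -0.74), beside 36.2% and 35.6%. The medians of all genes were -0.02 in WT and -0.01 in KO. Rplp1, a protein of the ribosomal stalk, had the level most like Rn45s over the 12 libraries of 8824 genes compared (r = 0.9984, and 0.366 for deviations within groups). It was at 1070 ± 68.6 CPM in WT cTreg, 901.1 ± 26.0 in KO cTreg, 322.7 ± 13.6 in WT eTreg and 271.4 ± 4.16 in KO eTreg (SD, n = 3). Of 11 nonsense-mediated decay factors 1, Pnrc2 (0.19, adjusted p = 0.00707), was higher in KO cTreg and 0 were called in KO eTreg; 14.1% of all genes were higher in cTreg and 6.56% called in eTreg. In eTreg against cTreg in WT 5 were higher, with Upf3b at 1.12, and 4 lower, with Smg9 at -1.39 (7 and 3 with total library size), beside 35% and 36.6% of all genes.

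**Figure D5:**
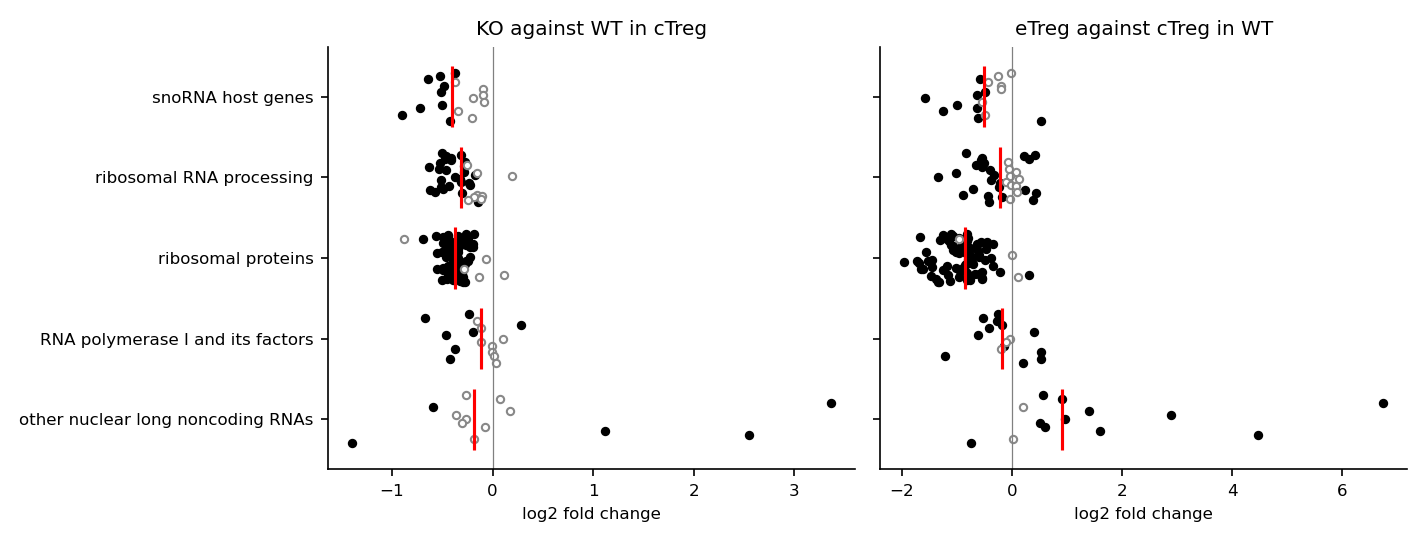
Log2 fold change of each tested gene of 5 lists, for KO against WT in cTreg and for eTreg against cTreg in WT; each circle is a gene, filled where the adjusted p is under 0.05, and red lines are list medians. In KO cTreg the medians are -0.40 for snoRNA hosts, -0.32 for processing factors and -0.37 for ribosomal proteins, and in eTreg the other nuclear long noncoding RNAs lie mostly above 0.

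Levels were also set per kilobase, which corrects for length only and not for how well each RNA is captured. Rpph1 was at 10500 ± 2134 CPM per kilobase and Malat1 at 1750 ± 116.2 in WT cTreg (SD, n = 3). In KO eTreg they were at 3246 ± 1022 and 2968 ± 257.1, a difference smaller than their spread. Both are annotated without introns. Gas5 and Snhg1 were left out because their annotated exons, over all transcripts, cover 3760 of 4118 and 2969 of 2969 bases of the locus and give no length for the spliced RNA.

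Some genes beside the RNAs differed as well. Frmd8, 4224 bases from Neat1, was lower in eTreg by 1.06 on the log2 scale in WT, a fall from 321 to 154 CPM (adjusted p = 1.52e-11). Serpinc1, 28559 bases from Gas5 and the gene of antithrombin, was higher in KO cTreg (log2 fold change 1.01, adjusted p = 0.00124) and in WT eTreg (2.64, adjusted p = 1.07e-09), while Gas5 was lower in the first and not called in the second. Parp2 begins 74 bases from Rpph1 on the opposite strand and was at -0.31 in KO cTreg (adjusted p = 0.00335). Slc3a2, 106 bases from Snhg1 on the opposite strand, was at -0.11 in KO cTreg (adjusted p = 0.204), and Wdr74, on its other side, at -0.37 (adjusted p = 0.0156), a call lost with total library size and without WT cTreg replicate 1 or KO cTreg replicate 2 (adjusted p up to 0.0741). The annotated spans of these opposite-strand pairs do not overlap. Whether the counting used strand is not given, so reads running past a gene's annotated start could not be assigned to a strand.

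The genes whose log2 CPM followed each RNA most closely over the 12 libraries, among the 8824 compared, came mostly from the difference between groups. Malat1 was closest to Dicer1, the enzyme that cuts microRNA precursors (r = 0.9949), then to Slc25a36 (0.9912) and Phf3 (0.9904), and within groups the Dicer1 value was 0.922. Rpph1 was closest to Rmrp (0.9668) and Terc (0.9622), the same genes it deviated with inside groups. Neat1 had the weakest matches, with Hspbap1 at 0.8694, Tgtp1 at 0.8559 and Samhd1 at 0.8369. Gas5 was closest to Ikbkap (0.9581) and Snhg1 to Lyar (0.945), a nucleolar protein. These are descriptions over 12 libraries of 4 groups, and no test was made of them.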

How the data were processed

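Total RNA from 12 sorted Treg libraries was sequenced after ribosomal RNA depletion (Qiagen RNeasy, KAPA RNA HyperPrep with RiboErase, per the labels' protocols). The deposited table holds whole-number read counts per gene symbol; the submitters' processing notes name HISAT2 2.2.1, mm10 and Cell Ranger, with no roles, and neither the counting tool nor whether it used strand was found in these sources. The table also holds 27 symbols turned into month-like names, which count in totals.

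The 6 RNAs and the gene lists were chosen with earlier results of these data known. The named genes are the 6, their annotated neighbours, Il2ra, the 3 genes most like each in log2 CPM (prior count 2) among those whose mean log2 CPM was 3 or more, and up to 2 called genes per direction of each list; some are not reported here, and others are said to be chosen after their values were seen.

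Counts were fitted in R 4.3.3 with edgeR 4.0.16 (filterByExpr, group means over 12 libraries, robust quasi-likelihood F-test, two-sided, Benjamini-Hochberg adjustment over 12497 genes). Library sizes were summed without Rn45s and TMM factors computed on the other genes, with Rn45s kept as a row; genes were called at an adjusted p under 0.05. An SE is the log2 fold change divided by the square root of F. Shares of library counts have Wilson 95% intervals, which cover counting error only, and Rn45s shares were compared by exact permutation within subset or genotype (scipy 1.17.1). Coordinates are from GENCODE vM21 on mm10 (5 of the 6 RNAs), and promoter sequences from RefSeq on GRCm38.p6.

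The fit was tested on simulated data over 12497 genes. In the cTreg comparison of KO with WT it recovered 66 of 100 genes at 1.5-fold and 81 of 100 at 2-fold. In eTreg it recovered 69 and 90. False calls were 3.92% of calls in cTreg and 5.92% in eTreg, and 2.4% and 5.7% between subsets in WT and KO. All groups were drawn with the same Rn45s level and few genes changed, so scaling under the Rn45s difference was not tested. Each library was a pool of mice and was treated as a separate sample. No label says whether cTreg and eTreg libraries came from the same mice, and the main fit and the permutation test take the 12 libraries as independent. No libraries were duplicates: the chi-square per degree of freedom between libraries of a group was 3.74 to 10.4. Deviations of same-numbered libraries correlated in KO and WT eTreg at 0.33, 0.471 and 0.204, so by the rule used (all over 0.1) their numbers pair; the data alone hint at it, and no label ties a number to a litter or day. Alternatives were other scalings, filters, DESeq2 1.42.0, limma 3.58.1 (voom), 6-library fits, the replicate block and leaving out each library.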

Additional observations from a re-analysis of the deposited data

How the results depend on the processing

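Counts of genes called for KO against WT in cTreg (3409), and for eTreg against cTreg in WT (8951) and KO (8974), stayed within 1.5 times. KO against WT in eTreg (820) gave 1711 with the replicate block in its 6 libraries and 460 to 884 with 1 library left out (460 without WT eTreg replicate 2, 499 without WT eTreg replicate 3, 463 without KO eTreg replicate 3). The interaction (466) gave 947 with total library size and 313 to 579 with 1 library left out.
Total library size, which includes Rn45s, moved the median log2 fold change of all genes by over 0.1 in both subset comparisons (to 0.402 in WT and 0.285 in KO) and in the interaction (-0.116), and to 0.1 for KO against WT in cTreg. Higher calls were then 76.1%, 68.8%, 5.81% and 76.6% of all calls, against 48.8%, 49.6%, 22.7% and 51.6%. With library sizes without Rn45s and no TMM they were 35.6% for KO against WT in eTreg (47.7%) and 15% for the interaction. The cause of the other changes below was not tested.

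With total library size the sign turned for Neat1 (0.1424 in WT, 0.2308 in KO) and Snhg1 (0.1576, 0.1696) between subsets, Gas5 between subsets in WT (0.3951) and the Rn45s interaction (-0.0098). Gas5 between subsets in WT, near 0 throughout, also turned with library sizes without Rn45s and no TMM (0.0682), DESeq2 size factors (0.0107), the DESeq2 Wald test (0.0131) and its 6 libraries alone (0.0021, and 0.0004 with the replicate block). With 1 library left out, uncalled values changed sign for Neat1 for KO against WT in cTreg (-0.0084 to 0.1215) and between subsets in KO (-0.137 to 0.0119), Gas5 between subsets in WT (-0.0627 to 0.0236), Snhg1 between subsets in KO (-0.2256 to 0.0496) and the Rpph1 interaction (-0.2065 to 0.4559).

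Outside eTreg the replicate numbers did not meet the rule for pairing, and of the 6 RNAs the replicate block changed calls of Rpph1 alone: -0.51 for KO against WT in cTreg (adjusted p = 0.00515), -1.42 between subsets in WT (adjusted p = 0.124) and -1.20 in KO (adjusted p = 0.0836, and 0.0584 over 12 libraries). Without the block, the 6 libraries alone gave Rpph1 an adjusted p of 0.0788 between subsets in WT. Snhg1 between subsets in WT passed in 6 alternatives, limma-voom among them (-0.25, adjusted p = 0.0451). Of 373 values under other settings 343 kept their direction and side of the threshold, as did 330 of 360 with 1 library left out. Rows of few counts, such as Snord47 and Snord22, limit what depth can show.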
